A study of Canis lupus familiaris with 12 samples.

Results

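The 9 genes described here encode proteins that tie integrins to actin filaments at focal adhesions, or that join those filaments to each other: talin 1 (TLN1), kindlin 2 (FERMT2), integrin-linked kinase (ILK), vinculin (VCL), paxillin (PXN), zyxin (ZYX), the alpha-actinins ACTN1 and ACTN4, and filamin A (FLNA). They were chosen by name, and every probe set annotated with a single gene equal to one of these names was taken. That gave 21 of the 42924 tested probe sets, and 9 of the 15115 genes with a probe set of their own. Expression had been measured on 1-colour Affymetrix dog arrays in the established dog kidney epithelial cell line MDCK II, in its tet-off form. Multicellular cysts in 3-dimensional type I collagen (3D, 6 arrays) were compared with flat sheets in 2-dimensional type I collagen (2D, 6 arrays), the control condition. Cells of both groups were kept in medium with serum and G418 and were released from the gel with collagenase on day 8. The RNA of 4 samples was pooled for each array, so the errors given measure the spread between pools of 1 cell line and leave out that between single cultures.

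A focal adhesion is a plaque at which integrins, receptors for the matrix outside the cell, are coupled to the actin cytoskeleton inside it. Talin and kindlin bind the tails of beta integrins and switch them to a state that holds the matrix. Talin unfolds under load and recruits vinculin, which binds actin, while ILK joins kindlin and the parvins in a scaffold. Paxillin and zyxin are LIM domain proteins that gather signalling and actin assembly factors. Alpha-actinins and filamins crosslink actin filaments into bundles and networks. In epithelial sheets vinculin, zyxin and alpha-actinin are also found at cell-cell junctions.

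The actin crosslinkers ACTN1, ACTN4 and FLNA and the talin partner VCL rose in 3D, with the 4 largest fold changes of the 9 genes. With each gene represented by its brightest probe set, ACTN1 was 3.01-fold, VCL 2.04-fold, FLNA 2.00-fold and ACTN4 1.70-fold higher in 3D. FERMT2, ILK and PXN rose by 1.15-fold, 1.19-fold and 1.16-fold. ZYX and TLN1 did not pass the test, with ratios of 1.14 and 0.92. Counted together, 7 of the 9 members rose and 0 fell (limma, adjusted p under 0.05), where 19.8% of all genes rose, 22.9% fell and 42.7% did either. The unadjusted limma p was 0.0227 for ZYX and 0.114 for TLN1. A rise of at least 2-fold was seen for 3 members, against 1.85% of all genes. In 6 members every 3D array lay above every 2D array, which was the case for 13.2% of all genes, and 22.6% of genes showed no overlap in either direction. The median log2 fold change, 3D minus 2D, was 0.25 over the 9 members and -0.05 over all genes. In a whole culture, more RNA per cell and more cells of one kind cannot be told apart.

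Some features of all 12 arrays bear on these values. The upper quartile of intensity per array ran from 338.2 to 367.5 in 3D and from 319.8 to 341.6 in 2D. Principal component 1 separated the groups, and 3D replicate 2 and 2D replicate 6 lay farthest out on component 2. The epithelial markers CDH1, EPCAM, KRT8, KRT18, CDH16 and PAX8 were above the control level, the 95th percentile of 59 control probe sets that match no dog gene, on every array. The control level itself ran from 5.59 to 5.71 in 3D and from 5.67 to 5.91 in 2D on the log2 scale. Of the 6 epithelial markers 3 rose and 1 fell. The log2 fold changes were 1.02 for CDH1, 0.64 for KRT8, 0.18 for KRT18 and -0.19 for CDH16. Of the 7 fibroblast, 5 leukocyte, 4 endothelial and 5 muscle markers measured, 1 rose (CD14, a leukocyte gene) and 10 fell. Over all genes 19.8% rose and 22.9% fell. The muscle list shares ACTN2 with a list of crosslinkers described here. The log2 of the summed intensity of the markers lay at 8.55 to 8.71 in 3D and 8.65 to 8.89 in 2D for fibroblasts. For muscle it lay at 8.52 to 8.69 in 3D and 8.67 to 8.83 in 2D. For leukocytes it was 8.89 to 9.07 in 3D and 8.94 to 9.06 in 2D, and for endothelium 8.25 to 8.41 in 3D and 8.39 to 8.55 in 2D, against 14.93 to 15.00 in 3D and 14.66 to 14.85 in 2D for the epithelial list. Above the control level on every array were 2 of the 7 fibroblast, 5 of 5 leukocyte, 3 of 4 endothelial and 3 of 5 muscle markers. COL1A2, PECAM1 and MYOD1 were at or below the control level on all arrays. The part of other cell types in these values was not tested. RNA integrity was read from control probe sets for actin and GAPDH, as the log2 of 5-prime over 3-prime signal, called the RNA control ratio here. It averaged -0.54 ± 0.17 in 3D and -0.91 ± 0.14 in 2D (n = 6 each, SD), with an exact two-sided permutation p of 0.00866. All 13 of these actin and GAPDH control probe sets were themselves higher in 3D. The difference, 3D minus 2D, ran from 0.31 to 1.21 log2 units for actin and from 0.47 to 0.71 for GAPDH (exact permutation p = 0.00216, or 0.00433 for 1 actin probe set).

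**Figure D1:**
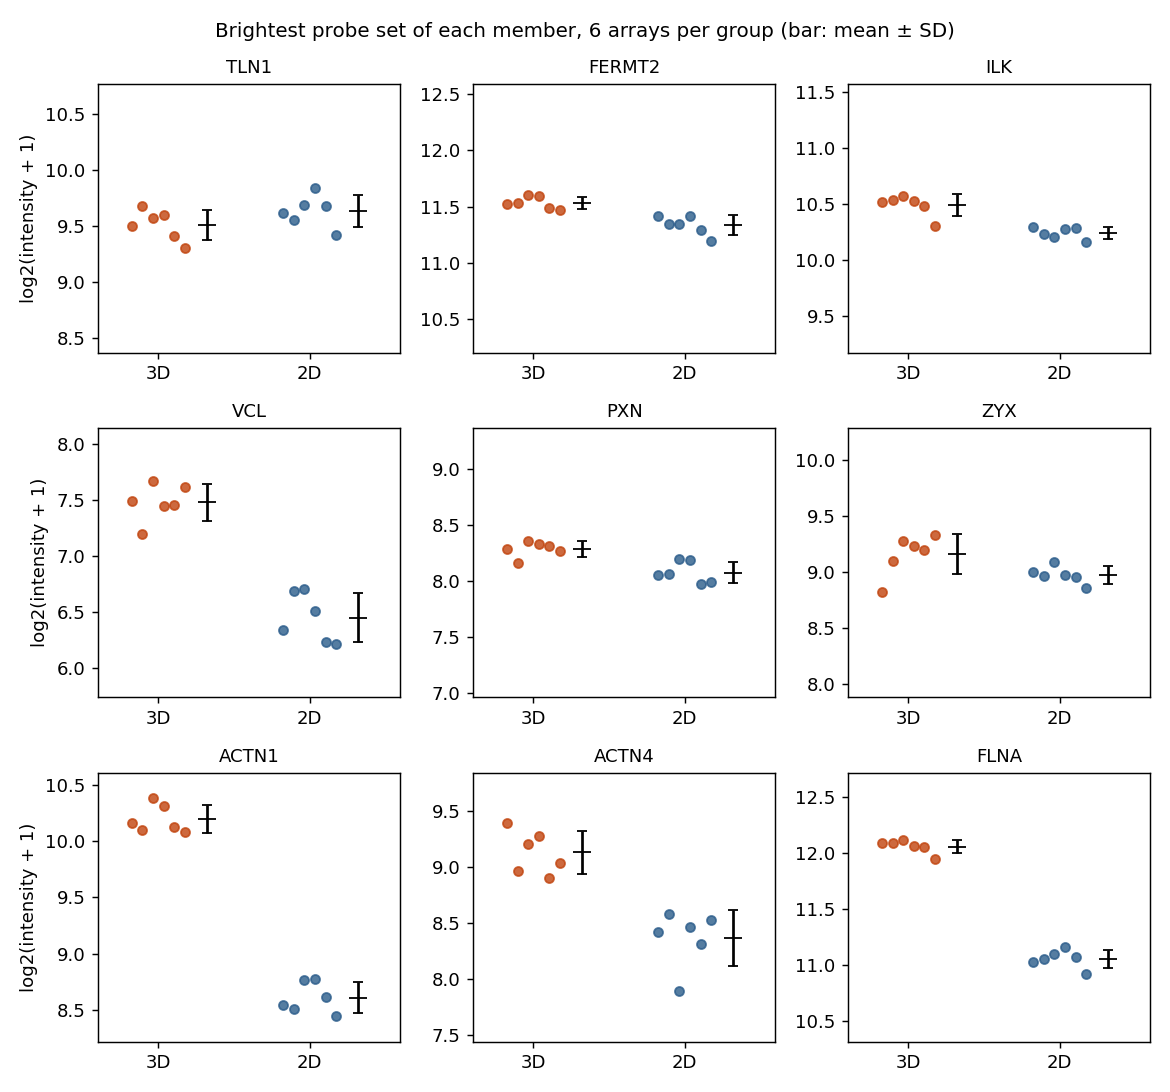
Level of each member on every array as log2(intensity + 1), for its brightest probe set, with 3D left of 2D. Points are the 6 arrays of a group, and the bar beside them is the mean ± SD; all panels span the same range of log2 units. ACTN1, FLNA, VCL and ACTN4 separate widely, FERMT2 and ILK narrowly, and PXN, ZYX and TLN1 overlap.

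At the integrin tail, none of the 4 TLN1 probe sets rose. The brightest, Cfa.11421.1.A1_s_at, had log2 intensities from 9.31 to 9.68 (median 9.54) in 3D, against 9.42 to 9.84 (median 9.65) in 2D. The groups overlapped, and no 3D array exceeded the highest 2D array. The log2 fold change was -0.12 (SE 0.07, 95% confidence interval -0.28 to 0.03, limma adjusted p = 0.195). It passed as a fall with quantile normalization (-0.20, limma adjusted p = 0.0358) and when 3D replicate 2 and 2D replicate 6 were both left out (-0.20, limma adjusted p = 0.0266), and it was 0.004 with the RNA control ratio as a covariate. The dimmest TLN1 probe set, Cfa.12147.1.A1_s_at, fell by 0.20 (SE 0.07, limma adjusted p = 0.0352), but it was above the control level on 2 of 6 arrays in 3D and 2 of 6 in 2D. That call ended without any 1 of 6 arrays (3D replicates 1, 3 and 6 and 2D replicates 1, 2 and 6, with values from -0.20 to -0.16), with quantile normalization (-0.13), with median centring (-0.17), with the replicate block (-0.20) and with the RNA control ratio as a covariate over 4 pairs (-0.17) or 5 pairs (-0.18). The other 2 probe sets had log2 fold changes of 0.08 (95% confidence interval -0.11 to 0.27) and -0.05 (-0.22 to 0.12). Together the intervals of the 4 probe sets reach no further than -0.35 and 0.27.

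FERMT2, kindlin 2, was measured by 1 probe set, Cfa.10802.1.S1_at. It lay between 11.47 and 11.60 (median 11.53) in 3D, against 11.19 to 11.42 (median 11.35) in 2D. Every 3D array was above every 2D array, but by a narrow margin, and the log2 fold change was 0.20 (SE 0.05, limma adjusted p = 0.00488). The call ended with the RNA control ratio as a covariate (0.16, limma adjusted p = 0.187). ILK, the pseudokinase that anchors the kindlin-bound scaffold, was higher in 3D by all 3 of its probe sets, each without overlap between the groups. The brightest, Cfa.465.1.S1_s_at, lay between 10.31 and 10.57 (median 10.53) in 3D, against 10.17 to 10.30 (median 10.26) in 2D. Its log2 fold change was 0.25 (SE 0.05, limma adjusted p = 0.00131), and those of the other 2 were 0.40 (SE 0.06) and 0.43 (SE 0.07). The brightest still passed with that covariate (0.29, limma adjusted p = 0.0238), and the other 2 did not (0.25 with adjusted p = 0.0666 and 0.16 with adjusted p = 0.152).

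VCL, which reinforces the link from talin to actin, rose by 1.03 log2 units (SE 0.10, limma adjusted p = 4.42e-07). Its brighter probe set, Cfa.1684.1.S1_at, lay between 7.20 and 7.67 (median 7.47) in 3D, against 6.21 to 6.71 (median 6.43) in 2D. The lowest 3D array, replicate 2, stood above the highest 2D array. The rise was 0.67 with the RNA control ratio as a covariate (limma adjusted p = 0.000382). The second VCL probe set was at or below the control level on all 12 arrays, so it gives no fold change, and averaging both probe sets lowered the value to 0.49.

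The scaffolds PXN and ZYX moved little. PXN, which gathers kinases and adaptors at young adhesions, was measured by Cfa.17349.1.S1_at and a dimmer probe set. The brighter lay between 8.16 and 8.36 (median 8.30) in 3D, against 7.97 to 8.20 (median 8.06) in 2D. Of the 3D arrays 5 were above every 2D array. The log2 fold change was 0.21 (SE 0.05, limma adjusted p = 0.00581), and the second PXN probe set gave 0.27 (SE 0.09, limma adjusted p = 0.0279). The call of the first ended with quantile normalization (0.11, limma adjusted p = 0.0736) and with the RNA control ratio as a covariate (0.09, limma adjusted p = 0.490). That of the second ended without any 1 of 6 arrays (3D replicates 1, 3, 4 and 6 and 2D replicates 5 and 6, with values from 0.21 to 0.26), and its sign turned with that covariate (-0.08, limma adjusted p = 0.627).

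ZYX, which follows tension along stress fibres and recruits actin assembly factors, was measured by Cfa.20703.1.S1_s_at. It lay between 8.82 and 9.33 (median 9.21) in 3D, against 8.85 to 9.09 (median 8.97) in 2D. Replicate 1 was below all 2D arrays, and the other 5 of the 3D arrays were above all of them. The log2 fold change was 0.19 (SE 0.07, 95% confidence interval 0.03 to 0.34, limma adjusted p = 0.0565). Without 3D replicate 1 it was 0.25 (limma adjusted p = 0.00264), and without 2D replicate 3 it was 0.21 (limma adjusted p = 0.0440).

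The actin crosslinkers rose in each of their 8 probe sets, and in none of them did the groups overlap. Raised probe sets made up 16.7% of all probe sets, and 10.1% of all had every 3D array above every 2D array. ACTN1, the alpha-actinin that bundles stress fibres, had its brightest probe set, CfaAffx.25315.1.S1_s_at, between 10.09 and 10.39 (median 10.15) in 3D, against 8.44 to 8.77 (median 8.58) in 2D. It rose by 1.59 log2 units (SE 0.07, limma adjusted p = 7.35e-11), the largest change of the 9 and at place 109 of 15115 genes by rise. The lowest 3D array was more than 1 log2 unit above the highest 2D array.

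ACTN4, the other non-muscle alpha-actinin, was measured by Cfa.17841.1.S1_s_at. It lay between 8.90 and 9.39 (median 9.12) in 3D, against 7.89 to 8.58 (median 8.44) in 2D. The groups stayed apart, with the widest spread of the crosslinkers in 2D, where replicate 3 was lowest. The log2 fold change was 0.76 (SE 0.11, limma adjusted p = 4.35e-05). FLNA, which joins actin filaments at wide angles and also binds integrin tails, had its brightest probe set, Cfa.14621.1.S1_a_at, between 11.95 and 12.11 (median 12.07) in 3D, against 10.92 to 11.16 (median 11.07) in 2D. The groups were a wide margin apart, and the log2 fold change was 1.00 (SE 0.05, limma adjusted p = 2.26e-10). ACTN1, ACTN4 and FLNA had log2 fold changes of 1.52, 0.74 and 1.03 with the RNA control ratio as a covariate, each still past the threshold. The part of RNA integrity in the smaller rises was not tested beyond this covariate.

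**Figure D2:**
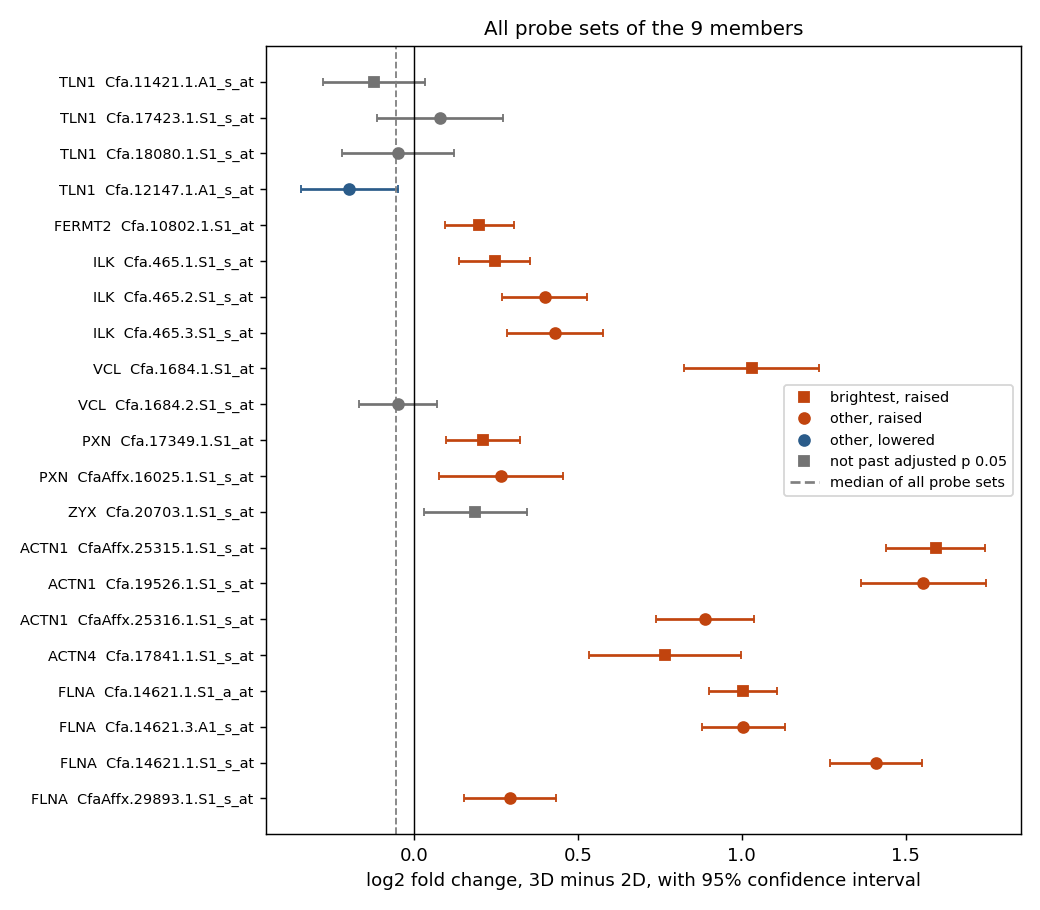
Log2 fold change, 3D minus 2D, of all 21 probe sets, with the 95% confidence interval of the limma fit. Squares mark the brightest probe set of a gene, red a rise, blue a fall and grey a probe set that did not pass adjusted p under 0.05; the dashed line is the median of all probe sets, -0.06. ACTN1, FLNA, VCL and ACTN4 lie to the right, and the probe sets of FLNA and ACTN1 differ among themselves. The lower VCL probe set is at or below the control level on all arrays.

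Of the 21 probe sets 15 rose and 1 fell, where 16.7% of all probe sets rose, 22.0% fell and 38.7% did either. Of these, 6 rose at least 2-fold, against 1.45% of all probe sets. Most of them, 17, carry the suffix _s_at, which marks probes shared by several transcripts, so which transcript or close relative was measured is uncertain for these, all ACTN1, ACTN4, ZYX, ILK and TLN1 probe sets among them. For the 6 members with several probe sets, the brightest was set against each other one by an exact two-sided permutation test of the per-array difference, with adjustment over all 18 comparisons of this kind. Changes differed within FLNA and ACTN1. The second VCL probe set, at or below the control level on all arrays, gives no such comparison. The brightest FLNA probe set and Cfa.14621.3.A1_s_at each gave 1.00, while Cfa.14621.1.S1_s_at gave 1.41 (brightest minus this one -0.41, SE 0.05, exact permutation p = 0.00216, adjusted p = 0.00649). CfaAffx.29893.1.S1_s_at gave 0.29 (brightest minus this one 0.71, SE 0.10, the same p-values), and it was above the control level on 6 arrays in 3D and 3 in 2D. The call of that dim probe set ended with the RNA control ratio as a covariate (0.22, limma adjusted p = 0.177).

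Within ACTN1, the brightest probe set and Cfa.19526.1.S1_s_at gave 1.59 and 1.55, and the dimmest, CfaAffx.25316.1.S1_s_at, gave 0.89 (SE 0.07, limma adjusted p = 6.02e-08). The dimmest lay between 7.32 and 7.72 (median 7.50) in 3D, against 6.43 to 6.74 (median 6.64) in 2D, so its groups did not overlap either. Its change differed from that of the brightest by 0.70 (SE 0.07, brightest minus dimmest, exact permutation p = 0.00216, adjusted p = 0.00649). The 2 brighter ones differed by 0.04 (adjusted exact permutation p = 0.735), but by 0.25 with the RNA control ratio as a covariate (limma adjusted p = 0.0233). The probe sets of TLN1, ILK and PXN did not differ from the brightest of their gene after adjustment, with differences between -0.20 and 0.08. Without 3D replicate 2, 1 TLN1 comparison (-0.29, exact permutation p = 0.00866, adjusted p = 0.0156) and both ILK comparisons passed (-0.20 and -0.24, exact permutation p = 0.00649, adjusted p = 0.0130). Another TLN1 comparison, with Cfa.18080.1.S1_s_at, changed sign and passed with the covariate (0.30, where it had been -0.07, limma adjusted p = 0.0233).

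The changes of related members were compared in the same way. The rise of ACTN1 exceeded that of ACTN4 by 0.83 log2 units (SE 0.16, exact permutation p = 0.00433, adjusted p = 0.0111), and by 0.58 with all probe sets of a gene averaged. VCL rose and its partner TLN1 did not, a difference of 1.15 (SE 0.14, exact permutation p = 0.00216, adjusted p = 0.00649). That difference was 0.67 with the RNA control ratio as a covariate and 0.56 with averaged probe sets, which takes in the VCL probe set at the control level. The changes of TLN1 and FERMT2, which bind the same tails, differed by -0.32 (TLN1 minus FERMT2, SE 0.06, exact permutation p = 0.00216, adjusted p = 0.00649), and with the covariate by -0.16 (limma adjusted p = 0.0995). ZYX and PXN differed by -0.02 (ZYX minus PXN, SE 0.08, exact permutation p = 0.829).

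ILK was set against its scaffold partners, the parvin PARVA and the LIM protein LIMS1. By the brightest probe sets ILK differed from PARVA by 0.04 (SE 0.11, ILK minus PARVA, exact permutation p = 0.816) and from LIMS1 by -0.05 (SE 0.09, exact permutation p = 0.613). With all probe sets of a gene averaged, ILK rose more than PARVA by 0.44 and more than LIMS1 by 0.19 (exact permutation p = 0.00216, adjusted p = 0.00325 each). The covariate likewise gave 0.41 and 0.25, so the comparison with LIMS1 turned its direction. Of the 2 PARVA probe sets the brighter gave 0.21 on the log2 scale (limma adjusted p = 0.0550) and the other fell, while 2 of the 4 LIMS1 probe sets rose and 0 fell.

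**Figure D3:**
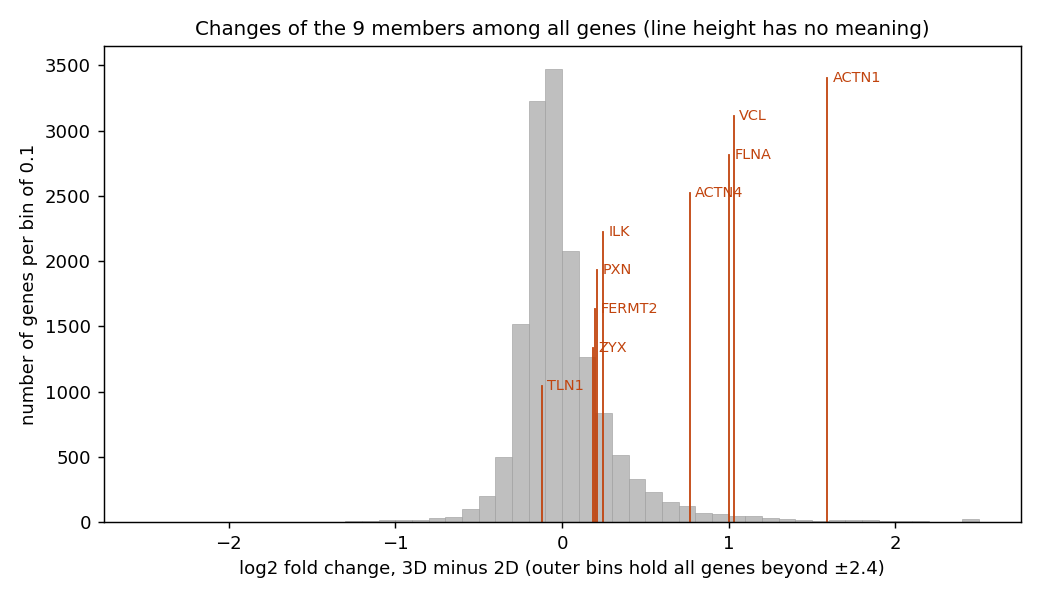
Log2 fold change, 3D minus 2D, of all 15115 genes, in bins of 0.1, with the 9 members marked by red lines whose height has no meaning. ACTN1, VCL, FLNA and ACTN4 lie in the right tail, at 1.59, 1.03, 1.00 and 0.76, and the other 5 lie between -0.12 and 0.25.

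The 4 members that rose most lay far out among all genes. By log2 fold change ACTN1 exceeded 99.3% of genes, VCL 98.3%, FLNA 98.2% and ACTN4 97.0%. ILK exceeded 85.5%, PXN 83.4%, FERMT2 82.6% and ZYX 81.8%, while TLN1 exceeded 32%. On each 3D array, 7 or 8 of the 9 members were above all 2D arrays. For all genes this was not counted array by array, so these counts have no share of all genes beside them. By the stricter condition of every 3D array at once, 6 of the 9 members and 13.2% of all genes were above all 2D arrays. Averaged over the 9 members, the log2 difference from the 2D mean lay between 0.51 and 0.67 on the 3D arrays and between -0.11 and 0.10 on the 2D arrays.

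Other genes of cell-matrix adhesion were read from lists to place the members. Among 12 integrin receptors 10 rose and 1 fell, with a median log2 fold change of 0.61, where 19.8% of all genes rose. ITGA3, a laminin receptor chain, rose by 1.06 (SE 0.07), and ITGA2, which pairs with ITGB1 to bind collagen, by 0.79 (SE 0.06). ITGB4, the hemidesmosome subunit, rose by 0.77 (SE 0.04), and ITGAV, a chain of vitronectin receptors, by 0.74 (SE 0.08), although 2 of its 5 probe sets rose and 2 fell. Of 14 measured adaptors linked to integrins 4 rose and 3 fell, with a median of -0.04, where 19.8% of all genes rose and 22.9% fell. The difference between both lists was not tested. RSU1, a partner of the ILK scaffold, rose by 0.35 (SE 0.04, limma adjusted p = 3.39e-06), and the parvin PARVG fell by 0.29 (SE 0.06, limma adjusted p = 0.000958). The call of PARVG ended with the RNA control ratio as a covariate (-0.22, limma adjusted p = 0.114).

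Of 25 measured LIM, scaffold and signalling proteins of adhesions 12 rose and 5 fell, with a median of 0.09. Over all genes 19.8% rose and 22.9% fell. Only 7 of the 25 rose with quantile normalization, with the RNA control ratio as a covariate, without 3D replicate 1 or without 3D replicate 4. FHL2, a LIM protein that also acts in the nucleus, rose by 1.07 (SE 0.08), CSRP1, a LIM protein that binds alpha-actinin, by 0.70 (SE 0.12), and PDLIM7, a PDZ and LIM protein of stress fibres, by 0.60 (SE 0.06). SORBS2, an adaptor that binds vinculin, fell by 1.28 (SE 0.09, limma adjusted p = 1.66e-08). Its level was 7.60 ± 0.18 in 3D, against 8.88 ± 0.18 in 2D (SD, n = 6 each), a change in the other direction from that of VCL.

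While ACTN1, ACTN4 and FLNA all rose, of 17 other actin crosslinkers and bundlers 4 rose and 7 fell, with a median of -0.13. Over all genes 19.8% rose and 22.9% fell. Among these 17, the number that fell was 4 without 3D replicate 3, 3D replicate 4, 2D replicate 2 or 2D replicate 5. It was 3 with median centring or the RNA control ratio as a covariate. Fascin, FSCN1, which bundles filopodial actin, was at or below the control level on every 2D array and was at least 1.51-fold higher in 3D (limma adjusted p = 3.85e-05). PLS3, plastin 3, rose by 0.34 (SE 0.04), SVIL, supervillin, by 0.35 (SE 0.08) and DBN1, drebrin, fell by 0.40 (SE 0.05). The call of SVIL ended with the RNA control ratio as a covariate (0.34, limma adjusted p = 0.0845). The muscle alpha-actinin ACTN2 fell by 0.19 (limma adjusted p = 0.0492), and ACTN3 gave -0.13 (limma adjusted p = 0.0657), both opposite in sign to ACTN1 and ACTN4. Both were dim, where the mean control level was 5.71. ACTN2 averaged 5.92 in 3D and 6.12 in 2D, and ACTN3 6.24 in 3D and 6.37 in 2D. Of the 2 ACTN2 probe sets 1 fell. SRF, the transcription factor known to drive many cytoskeletal genes including VCL, rose by 0.31 (SE 0.06, limma adjusted p = 0.000636), and its actin-sensing cofactor MRTFA gave 0.06 (95% confidence interval -0.06 to 0.18). The other cofactor, MRTFB, fell by 0.15 (SE 0.06, limma adjusted p = 0.0490), but its probe set was above the control level on 0 arrays in 3D and 1 in 2D.

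**Figure D4:**
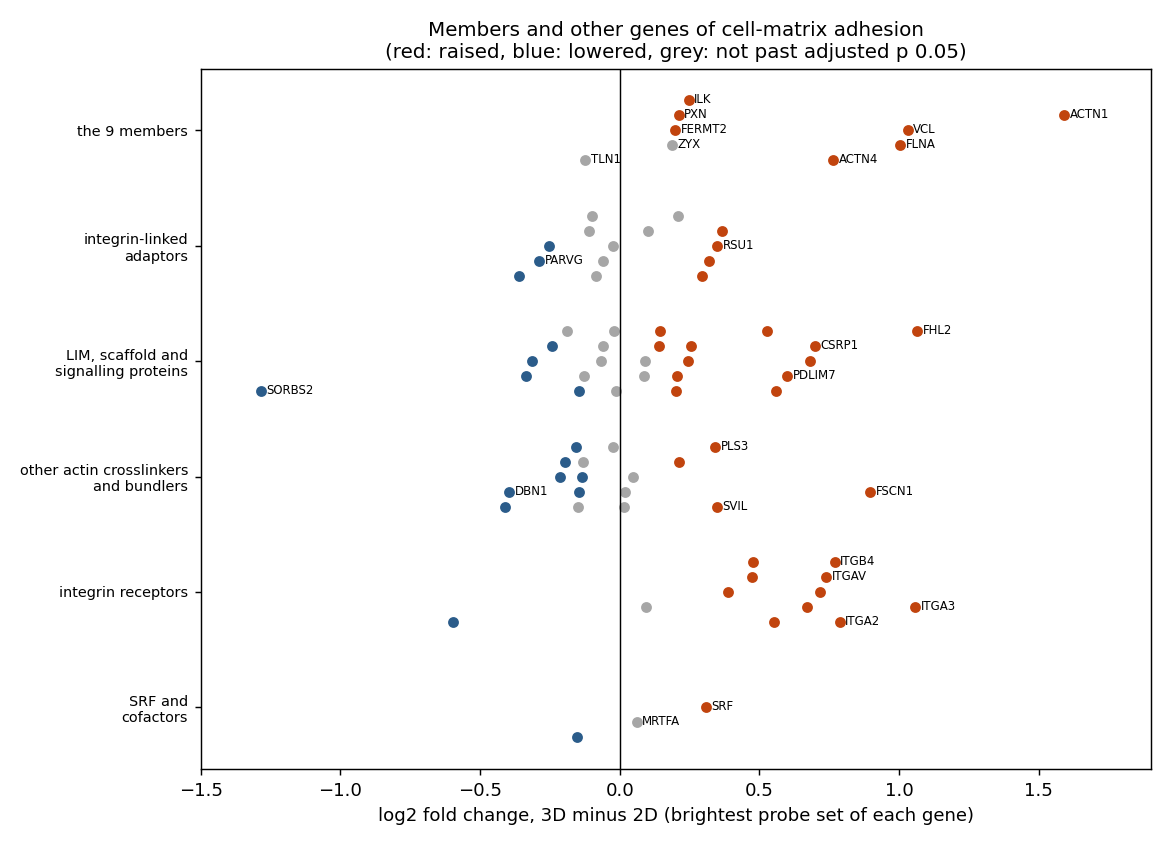
Log2 fold change, 3D minus 2D, of the 9 members and of the genes of 5 lists, each by its brightest probe set. Red points rose, blue points fell and grey points did not pass adjusted p under 0.05, and the height within a row has no meaning. Of the integrin receptors 10 of 12 are red, and the integrin-linked adaptors spread to both sides of 0.

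Likeness to single members was measured as the root mean square distance between profiles over the 12 arrays, each centred on its own mean, among 14542 genes. FLNA was nearest to TSPAN9, a tetraspanin (distance 0.0591 log2 units), and VCL to BAIAP2L1, a protein that shapes membranes with actin (0.102). ACTN1 was nearest to NFKBIA, the inhibitor of NF-kB (0.129), and ACTN4 to the hexokinase HK1 (0.145). FERMT2 was nearest to CTNNA1, alpha-catenin, which links cadherins to actin (0.0396), and TLN1 to ABLIM1, an actin-binding LIM protein (0.0456). ILK was nearest to PLA2G15 (0.0402), PXN to TCTA (0.0385) and ZYX to PTPN1 (0.0787). Among the members, FLNA and VCL were each the other's nearest (0.174), as were FERMT2 and ILK (0.0618). Many genes outside the 9 were nearer still. By distance from FLNA, VCL was at place 231, and by distance from VCL, FLNA was at place 52. ILK was at place 63 from FERMT2, and FERMT2 at place 21 from ILK. For TLN1 the nearest member was FERMT2, at place 7649 of all genes by distance.

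**Figure D5:**
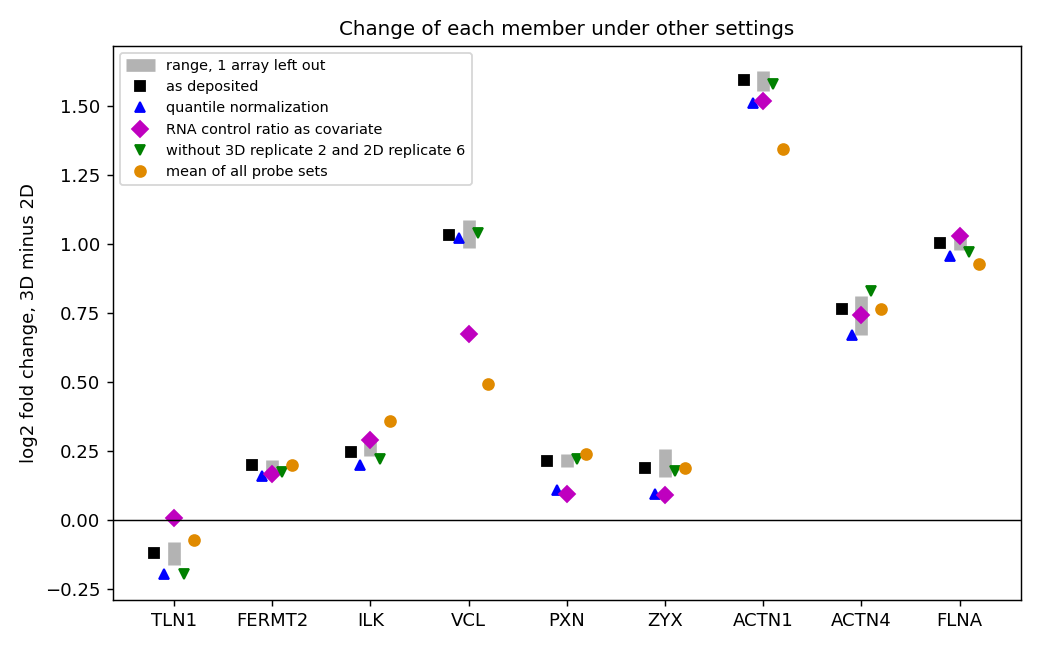
Log2 fold change, 3D minus 2D, of the brightest probe set of each member as deposited and under 4 other settings, with the range over leaving out 1 array as a grey bar. ACTN1, ACTN4 and FLNA stay at or above 0.67 throughout, VCL falls to 0.67 with the RNA control ratio as a covariate and to 0.49 with its probe sets averaged, and TLN1 stays between -0.20 and 0.004.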

How the data were processed

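The deposited values are intensities on a linear scale, 1 for each probe set of each array. Per the submitters' processing notes they were made with GCRMA, which corrects for background and summarises probes; its version, the probe set definitions and later steps are not stated in those notes. The 111 control probe sets of the manufacturer were left out, and the log2 of intensity plus 1 was taken with no further scaling, so fold changes of dim genes are understated. Precision is limited by how many arrays there are. The platform annotation gave 29254 tested probe sets 1 gene, 439 several and 13231 none. Of the 9 members 8 were found by identifier among RefSeq genes, and TLN1 by symbol.

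Groups came from the titles. limma 3.58.1 (R 4.3.3; lmFit, eBayes) was fitted with culture form alone as a term, and two-sided p-values were adjusted by the Benjamini-Hochberg method over the 42924 probe sets tested, with 0.05 as the threshold. The probe set with the highest mean stood for its gene. Differences between pairs were tested by exact permutation over 924 assignments of the arrays, which can give no p below 0.00216. The RNA control ratio averages 4 pairs of control probe sets. The plots were made with matplotlib 3.10.9 and Python 3.11.15. The fit was tested on simulated data.

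Members, lists and alternatives were chosen with earlier results of these data known. Named genes were the 9 members, the partners compared with them, and up to 4 of each list that passed with no overlap between groups, taken by size of change (where fewer than 2 did, also the up to 2 with the highest mean). ACTN2, ACTN3 and MRTFB were named after their values were seen. Alternatives were a stricter filter, quantile normalization, median centring, a pseudocount of 16, a trended robust prior, array weights, the replicate block, arrays left out, the RNA control ratio as a covariate, a minimum of 2-fold and averaged probe sets; the ratio over 5 pairs was added after seeing the data. Deviations of same-numbered arrays correlated by over 0.1 in 3 of 6 pairs, so numbers were not taken to pair arrays.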

Additional observations from a re-analysis of the deposited data

Results flagged for a closer look

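Of 44 sets of 6 arrays examined (the 21 probe sets and the RNA control ratio in each group), 4 held a value that stood far from its group, where chance alone flags about 1 in 20. Each gap exceeded 0.625 of the group's range. The brightest ILK probe set had its lowest 3D value in replicate 6 (10.3, with the next at 10.48), and a dimmer ILK probe set in 3D replicate 2 (8.325, with the next at 8.596). The brightest FLNA probe set was lowest in 3D replicate 6 (11.94, with the next at 12.06). The RNA control ratio was lowest among 3D arrays in 1 array (-0.8836, with the next at -0.5459), 3D replicate 2, which also lay farthest out on the second principal component. All 3 probe set values were still above every 2D array of the same probe set.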

How the results depend on the processing

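The rises of ACTN1, ACTN4, FLNA, VCL and ILK kept their direction and their side of the threshold under all 23 alternatives run for each. This holds for the brightest probe set, or the mean of all in the averaged setting. ACTN1 ranged from 1.34 to 1.62, ACTN4 from 0.67 to 0.83, FLNA from 0.93 to 1.03, VCL from 0.49 to 1.09 and ILK from 0.20 to 0.36. The dimmer ILK probe sets and the dimmest FLNA probe set did not pass with the RNA control ratio as a covariate. The minimum of 2-fold is not among the 23, and ACTN4 (1.70-fold) and ILK (1.19-fold) lay below it. For the settings that ended or made other calls the cause was not tested, except that a minimum of 2-fold calls fewer by construction and a stricter filter tests fewer probe sets. With the RNA control ratio as a covariate FERMT2 had 0.1641 and PXN 0.09143, and neither passed; over 5 pairs these were 0.1715 and 0.1257. PXN did not pass with quantile normalization either (0.1082). TLN1 passed with quantile normalization (-0.1974) and with both 3D replicate 2 and 2D replicate 6 left out (-0.1991), and over leaving out 1 array it ranged from -0.1658 to -0.08148 and did not pass. ZYX passed with the stricter filter (0.187, limma adjusted p = 0.0496), median centring (0.2109), the trended robust prior (0.187, limma adjusted p = 0.0499) and averaged probe sets (0.187, limma adjusted p = 0.0470), and over leaving out 1 array it ranged from 0.1534 to 0.2542.

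Of the pairs, TLN1 minus FERMT2 with the covariate was -0.1601 and no longer passed, while ILK minus PARVA passed with it (0.4067) and with averaged probe sets (0.4351). ILK minus LIMS1 was reversed with the covariate (0.2453) and with averaged probe sets (0.1915), as were the second PXN probe set (-0.08119) and the difference between 2 TLN1 probe sets (0.301) with the covariate.

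Counts moved as follows. At least 2-fold changes left 6 member probe sets and 3 members raised and 0 lowered, 1 gene raised and 1 lowered in the list of LIM and scaffold proteins, 1 raised and 0 lowered among integrin receptors, and 0 in either direction among the adaptors and other crosslinkers. With the covariate 9 member probe sets rose and 0 fell, 2 adaptors rose and 1 fell, 7 LIM and scaffold proteins rose and 2 fell, 3 other crosslinkers fell and 2 integrin receptors fell. With the covariate over 5 pairs 0 member probe sets fell, 2 adaptors rose, 2 LIM and scaffold proteins fell and 3 other crosslinkers fell. Of all probe sets 38.7% were called as deposited, 18.5% with the covariate and 22.7% with the covariate over 5 pairs. That share was 35.5% with quantile normalization and 34.9% with median centring. Quantile normalization gave 1 member lowered and 7 LIM and scaffold proteins raised, and median centring 3 other crosslinkers lowered. When both 3D replicate 2 and 2D replicate 6 were left out there were 2 member probe sets and 1 member lowered. The 1 lowered member probe set was 0 with the stricter filter, median centring and the replicate block, and 0 to 1 over leaving out 1 array. Over leaving out 1 array, 7 to 11 LIM and scaffold proteins rose and 4 to 8 other crosslinkers fell.

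With the replicate number as a block, 15 member probe sets and 7 members rose and 0 fell, and 1 of 6 arrays correlated best with its own number. The block ended the call of the dimmest TLN1 probe set (-0.1981, limma adjusted p = 0.0523) and made that of PARVA (0.2091, limma adjusted p = 0.0330), and it changed no other call of a single gene or pair recomputed with it. The difference of the RNA control ratio between 3D and 2D ranged from 0.336 to 0.439 over leaving out 1 array and was 0.286 over 5 pairs (exact permutation p = 0.0195).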
